A study of Mus musculus with 9 samples.

Results

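The genes described here are 6 regulators of meiotic entry and of the pachytene programme of male germ cells, Stra8, Meioc, Ythdc2, Rbm46, Mybl1 and Tcfl5. They were taken as the NCBI gene rows carrying these symbols in the deposited count and FPKM tables, which gives 6 of 21877 NCBI genes. All 6 had a row in both tables. They were chosen by name, so their levels in the libraries did not enter the choice made here, although results of these data were already known when the names were put together.

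RNA was measured in 3 kinds of male germ cell from testes of wild-type mice, namely spermatocytes in pachytene (PAC), spermatids that are still round (RS) and spermatids in elongation (ES), with 3 libraries for each cell type and no treatment named. Total RNA was depleted of ribosomal RNA, fragmented, and made into strand-marked libraries with dUTP. The age and strain of the mice, the number of animals behind a library and the way the cells were separated are not stated in the sources at hand. The labels call the libraries biological replicates, and p-values measure the spread between these libraries.

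STRA8 is induced by retinoic acid in germ cells that are about to enter meiosis, where it acts with its partner MEIOSIN on the promoters of early meiotic genes. MEIOC, the RNA helicase YTHDC2 and the RNA-binding protein RBM46 form a complex that binds transcripts and is needed for germ cells to leave the mitotic programme and progress through early meiotic prophase. MYBL1, also called A-MYB, and TCFL5 are transcription factors of the pachytene stage, and are needed for the expression of pachytene genes, among them precursors of pachytene piRNAs. PAC are in the long pachytene stage, after meiotic entry, RS are haploid cells after both meiotic divisions, and ES are haploid cells in which chromatin is being compacted.

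Total counts per library ran from 22910156 to 33801617, and 3 counts in a library, taken as the floor of detection, correspond to between 0.0819 and 0.162 CPM (the count as a share of its library, after TMM scaling). The 10 elongating spermatid markers were all called higher in RS than in PAC and in ES than in RS, and 8 of 10 round spermatid markers were higher in RS than in PAC. Of 11 pachytene spermatocyte markers, 7 were lower and 2, Spag6 and Adam3, were higher in RS than in PAC. Their summed level overlapped between the 2, at 5824 to 6121 CPM in PAC and 5846 to 6091 CPM in RS. Adam3 alone made up 33.1% of the sum in PAC and 47.4% in RS. Markers of cells outside these stages were also present. The summed level of 15 Sertoli cell markers was 46.2 to 98.8 CPM in PAC, 10.5 to 11.5 CPM in RS and 287 to 325 CPM in ES, and that of 10 Leydig cell markers was 110 to 146 CPM in PAC, 2.48 to 2.65 CPM in RS and 29.8 to 36.9 CPM in ES. Most of the Leydig sum in ES came from Ptgds (mean 12.3 CPM) and Nr5a1 (10.4 CPM), and Star came next at 2.59 CPM. Of the 10 Leydig cell markers, 9 were called lower in ES than in PAC and 1, Nr5a1, was called higher. The summed level of 13 macrophage and blood markers was 6.47 to 8.02 CPM in PAC, 19.4 to 23.7 CPM in RS and 174 to 273 CPM in ES. Most of the sum in ES came from the globin genes Hbb-bs (mean 85.3 CPM), Hba-a1 (48.9 CPM), Hba-a2 (32.5 CPM) and Hbb-bt (7.61 CPM). C1qb, a macrophage marker, averaged 24.7 CPM there.

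The 6 genes spanned a wide range of level per transcript length. In PAC the mean FPKM was 479 for Tcfl5, 142 for Meioc, 73.2 for Mybl1, 18.8 for Rbm46, 7.44 for Ythdc2 and 0.364 for Stra8. By mean FPKM in PAC, Tcfl5 ranked 131 among 21726 named NCBI genes, Meioc 671, Mybl1 1426, Rbm46 4117, Ythdc2 6609 and Stra8 12866. The same order held in RS, with mean FPKM of 322 for Tcfl5, 36.9 for Meioc, 21.1 for Mybl1, 9.30 for Rbm46, 2.09 for Ythdc2 and 0.0833 for Stra8. In PAC and in RS no 2 neighbours in this order had overlapping FPKM ranges. In ES the means were 290 for Tcfl5, 29.0 for Meioc, 20.1 for Mybl1, 14.8 for Rbm46, 2.30 for Ythdc2 and 0.444 for Stra8. There the range of Meioc (21.6 to 33.7 FPKM) overlapped that of Mybl1 (13.7 to 23.8 FPKM), which in turn overlapped that of Rbm46 (11.8 to 19.0 FPKM), so the order of these neighbours lay within the spread of the 3 libraries.

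**Figure D1:**
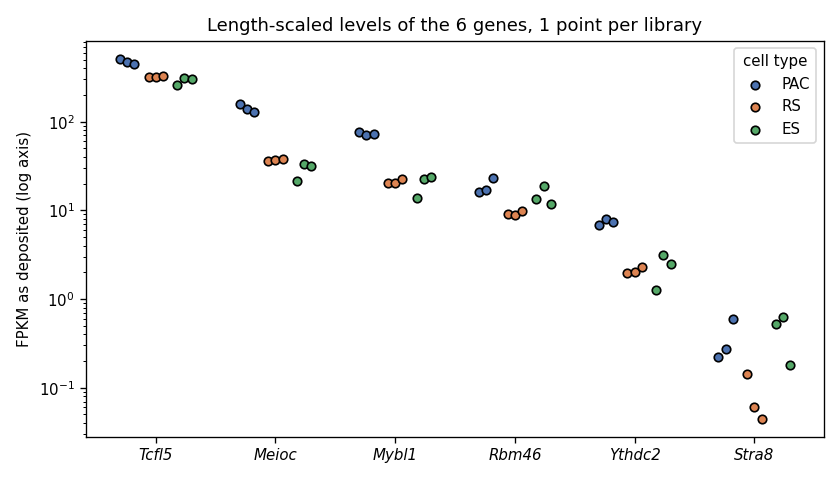
FPKM of the 6 genes in each library on a log10 axis, with PAC, RS and ES shown in order of development; each point is 1 library. Tcfl5 lies highest (mean 479 FPKM in PAC) and Stra8 lowest (mean 0.364 FPKM in PAC) in all 3 cell types.

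The promoters of the genes are shown because the 6 include transcription regulators whose motifs can be looked for at the other genes, and because a non-coding gene, Rbm46os, starts next to Rbm46. Those of 4 of the 6 are shown, from the RefSeq table for GRCm38.p6, and those of Ythdc2 and Mybl1 are not. Each runs from 250 bases before to 50 bases after the 1 start given there for the gene, so other starts are not shown. That start lies 785 bases inside the annotated gene for Stra8, 234 bases for Meioc, 29 bases for Rbm46 and 0 bases for Tcfl5. The motifs searched on both strands were AACNG, a core of MYB sites, its longer form AACNGTT, the E-box CANNTG and its form CACGTG, and CCTCAG, the core of a motif reported for STRA8 and MEIOSIN. The promoters are Tcfl5 at chr2:180642642-180642941 (minus strand), Rbm46 at chr3:82876434-82876733 (minus strand), Stra8 at chr6:34920698-34920997 (plus strand) and Meioc at chr11:102665335-102665634 (plus strand). Capitals mark AACNG and CCTCAG on either strand.
Stra8: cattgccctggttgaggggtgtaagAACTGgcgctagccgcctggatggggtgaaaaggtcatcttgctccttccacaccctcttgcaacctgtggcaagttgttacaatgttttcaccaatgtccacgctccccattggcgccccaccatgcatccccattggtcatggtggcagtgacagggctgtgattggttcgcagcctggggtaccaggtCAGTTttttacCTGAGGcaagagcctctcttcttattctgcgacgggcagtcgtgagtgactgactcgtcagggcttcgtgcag
Meioc: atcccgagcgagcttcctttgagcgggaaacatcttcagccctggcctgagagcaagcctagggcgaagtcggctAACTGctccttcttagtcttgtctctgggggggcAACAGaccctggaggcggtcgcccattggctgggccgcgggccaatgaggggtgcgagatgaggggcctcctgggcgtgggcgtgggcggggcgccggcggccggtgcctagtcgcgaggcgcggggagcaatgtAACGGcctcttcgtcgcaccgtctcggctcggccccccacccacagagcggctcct
Rbm46: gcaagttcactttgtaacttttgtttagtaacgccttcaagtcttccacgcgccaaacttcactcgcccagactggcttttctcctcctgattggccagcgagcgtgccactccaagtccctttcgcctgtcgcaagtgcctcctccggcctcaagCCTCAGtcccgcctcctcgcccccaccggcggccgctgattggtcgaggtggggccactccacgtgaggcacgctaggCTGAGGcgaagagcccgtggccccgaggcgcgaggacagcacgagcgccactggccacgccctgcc
Tcfl5: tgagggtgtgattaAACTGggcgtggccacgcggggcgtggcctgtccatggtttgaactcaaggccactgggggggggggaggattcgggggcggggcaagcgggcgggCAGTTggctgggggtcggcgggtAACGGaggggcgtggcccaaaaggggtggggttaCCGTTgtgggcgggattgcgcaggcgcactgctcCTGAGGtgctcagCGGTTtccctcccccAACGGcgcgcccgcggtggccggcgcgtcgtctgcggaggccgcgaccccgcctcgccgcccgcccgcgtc

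The Tcfl5 promoter held 6 matches to AACNG, a number reached by 1.55% of 32851 mouse promoters of the same length. The Meioc promoter held 3 matches, and 3 or more are present in 27.0% of promoters. Stra8 held 2 and Rbm46 held none. At least 1 match to AACNG is present in 80.3% of promoters. None of the 4 held AACNGTT, which occurs in 4.45% of promoters. CCTCAG occurred in 3 of the 4, against 26.8% of all promoters: in Stra8 beginning 23 bases before the start, in Tcfl5 beginning 49 bases before it, and in Rbm46 beginning 94 and 16 bases before it. At least 2 matches to CCTCAG are present in 4.74% of promoters. Rbm46 also held CACGTG, found in 7.15% of promoters, beginning 34 bases before the start. CANNTG, found in 72.3% of promoters, matched 2 places in Rbm46, of which 1 is the CACGTG, and 1 in Tcfl5, which overlaps an AACNG match. GC content was 73.0% in Tcfl5, 68.3% in Meioc, 64.0% in Rbm46 and 55.7% in Stra8, against a median of 52.7%. These are matches of letters, and binding was not measured.

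The question asked first was how the transcripts of the 6 genes differ between RS and PAC, the cells on either side of the meiotic divisions. Meioc, Ythdc2, Rbm46, Mybl1 and Tcfl5, whose counts passed the filter on low counts in each cell type, were called lower in RS than in PAC at an adjusted p below 0.05 (edgeR quasi-likelihood test, Benjamini-Hochberg over 26030 features). Stra8 was called lower as well, but it passed that filter only through PAC and ES, which favours a lower value in RS, so its values are given as a description. Every RS library was below every PAC library for each of the 6, which also held for 37.0% of all tested features and 49.8% of tested NCBI genes. Lower levels were common in this comparison: 34.2% of all tested features and 46.8% of tested NCBI genes were called lower in RS, against 38.2% of features and 26.5% of NCBI genes called higher, and 72.5% of features were called in either direction. The median NCBI gene had a log2 fold change of -0.46, against which the value of each gene is given below. In whole-cell-type RNA, fewer cells of a type and less RNA per cell cannot be told apart, and every level is a share of the RNA in its library.

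Stra8, the retinoic acid target at meiotic entry, was close to the limit of detection in all cell types. Its counts were 10, 11 and 23 in PAC, 7, 3 and 2 in RS and 21, 22 and 6 in ES. These correspond to 0.31, 0.40 and 0.83 CPM in PAC, 0.21, 0.082 and 0.058 CPM in RS and 1.13, 0.98 and 0.28 CPM in ES, so that RS replicates 2 and 3 were at or under the floor of 3 counts. All RS libraries were lower than all PAC and all ES libraries, while ES replicate 3 was lower than every PAC library. Its log2 fold change in RS against PAC was -2.10 ± 0.71 (SE, adjusted p = 0.0194), and it was -2.08 (adjusted p = 0.0198) in a fit with no filter on low counts. The call was lost without PAC replicate 3 (log2 fold change -1.58, adjusted p = 0.0908), without RS replicate 2 (-1.89, adjusted p = 0.0694) and without RS replicate 3 (-1.78, adjusted p = 0.0719).

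The genes of the RNA-binding complex were well above the floor. Meioc had 685, 567 and 543 CPM in PAC, 145, 151 and 154 CPM in RS and 125, 165 and 152 CPM in ES. The PAC libraries stood apart from all others, and the RS and ES libraries overlapped. Meioc fell in RS to 25.1% of its mean PAC level, at -2.00 ± 0.15 as a log2 fold change (SE, adjusted p = 7.89e-07). Ythdc2, whose protein has a YTH domain that binds N6-methyladenosine (m6A), had 42.3, 46.4 and 45.0 CPM in PAC, 11.2, 11.7 and 12.9 CPM in RS and 10.5, 21.6 and 16.9 CPM in ES. Its pattern resembled that of Meioc, with the PAC libraries highest and the other groups overlapping. Ythdc2 fell in RS to 26.8% of its mean PAC level (log2 fold change -1.90 ± 0.22, SE, adjusted p = 1.73e-05).

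Rbm46 had 46.5, 46.6 and 63.3 CPM in PAC, 17.6, 17.5 and 19.9 CPM in RS and 33.9, 44.6 and 29.1 CPM in ES. All 3 ES libraries lay between the RS and the PAC libraries. Rbm46 fell in RS to 35.2% of its mean PAC level, at -1.51 ± 0.19 as a log2 fold change (SE, adjusted p = 2.99e-05). On the deposited FPKM scale its fall was smaller, at -0.99 on the scale of log2(FPKM + 0.1) (limma, adjusted p = 0.00139). The ratio of count to FPKM, taken relative to the median feature of the library, was 1.21 to 1.26 for Rbm46 in PAC, 0.940 to 0.984 in RS and 0.855 to 0.998 in ES. A difference in this ratio as large as that of Rbm46 between RS and PAC (-0.38 on the log2 scale) was seen in 3.78% of 3914 features with more than 500 counts. For Meioc, Mybl1 and Tcfl5 the ratio differed by at most 0.09 on the log2 scale in the 3 comparisons. This ratio was looked at after the values were seen, and which of the 7 transcripts that RefSeq lists for Rbm46 were present was not analysed here.

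Of the pachytene transcription factors, Mybl1 had 351, 304 and 333 CPM in PAC, 78.3, 82.2 and 93.5 CPM in RS and 82.4, 118 and 119 CPM in ES. The PAC libraries were highest, and ES replicate 1 lay within the range of RS. Mybl1 fell in RS to 25.7% of its mean PAC level (log2 fold change -1.96 ± 0.16, SE, adjusted p = 1.7e-06). Tcfl5 had 1112, 974 and 941 CPM in PAC, 637, 656 and 656 CPM in RS and 750, 742 and 719 CPM in ES. The 3 cell types did not overlap, with RS lowest and ES between. Tcfl5 fell in RS to 64.4% of its mean PAC level (log2 fold change -0.64 ± 0.12, SE, adjusted p = 0.000513), the smallest change of the 6 genes in this comparison.

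**Figure D2:**
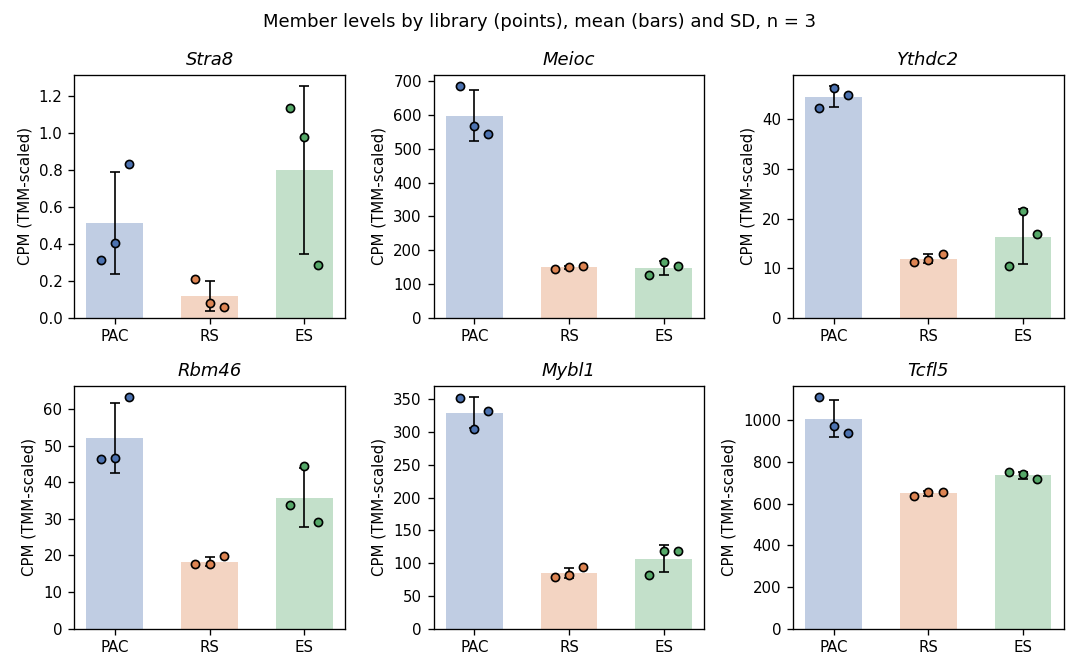
CPM of each of the 6 genes in every library, with a separate linear axis from 0 for each gene and PAC, RS and ES in order of development; points are libraries, and bars give the mean and SD of 3. PAC is highest for Meioc, Ythdc2, Rbm46, Mybl1 and Tcfl5, RS is lowest for Stra8, Rbm46 and Tcfl5, and for Meioc, Ythdc2 and Mybl1 the RS and ES libraries overlap.

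Set against all NCBI genes, the falls of Meioc, Mybl1, Ythdc2 and Rbm46 were larger than that of the median gene and that of Tcfl5 was close to it. The log2 fold change minus the NCBI median was -1.54 for Meioc, -1.50 for Mybl1, -1.44 for Ythdc2 and -1.05 for Rbm46. For Tcfl5 it was -0.18, and 45.3% of NCBI genes had a lower value. Accordingly, when the fit was restricted to NCBI gene rows, Tcfl5 had a log2 fold change of -0.25 and was not called (adjusted p = 0.104).

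In ES against RS, the comparison that follows spermatids into elongation, Rbm46 rose, and Meioc, Ythdc2, Mybl1 and Tcfl5 were not called. In this comparison 46.6% of features were called, 24.5% of features and 31.6% of NCBI genes being higher and 22.1% of features and 21.8% of NCBI genes lower in ES, so that 1 gene of these 5 is not above the share of NCBI genes called higher. Rbm46 averaged 35.9 ± 7.94 CPM in ES and 18.3 ± 1.34 CPM in RS (SD, n = 3 each), which is 0.97 ± 0.19 as a log2 fold change (SE, adjusted p = 0.0014). Stra8 averaged 0.799 ± 0.453 CPM in ES and 0.117 ± 0.0821 CPM in RS (SD, n = 3 each), and its log2 fold change was 2.73 with an SE of 0.71 (adjusted p = 0.00813). Its entry into the fit through PAC and ES favours a higher value in ES here too, and the value rests on 49 counts in ES and 12 counts in RS, summed over 3 libraries each.

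Tcfl5 had a log2 fold change of 0.18 in ES against RS with a 95% interval of -0.07 to 0.44 (adjusted p = 0.223). Ythdc2 had 0.45 (-0.02 to 0.93, adjusted p = 0.108) and Mybl1 had 0.33 (-0.02 to 0.68, adjusted p = 0.107). Meioc had -0.02 (-0.34 to 0.29, adjusted p = 0.907). The intervals of Ythdc2 and Mybl1 thus reach well above 0, and both were called higher without ES replicate 1, at 0.69 for Ythdc2 (adjusted p = 0.00367) and 0.49 for Mybl1 (adjusted p = 0.00813). ES replicate 1 had the lowest TMM factor of the 9 libraries, 0.758, and the lowest CPM of Meioc, Ythdc2 and Mybl1 in its group.

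The direction of Tcfl5 and of Meioc, which were not called, depended on the scaling. Meioc, at -0.02 with TMM factors, had 0.11 with RLE size factors. By deposited FPKM, Tcfl5 had 259 to 311 in ES and 318 to 324 in RS, and Meioc had 21.6 to 33.7 in ES and 36.1 to 37.6 in RS, so that on this scale both were lower in every ES library. With total counts alone in place of TMM factors, the log2 fold change of ES against RS was -0.15 for Tcfl5 (adjusted p = 0.347) and -0.34 for Meioc (adjusted p = 0.128), and the median of all features was -0.28, against 0.05 with TMM factors. With total counts alone 34.4% of the called features were higher in ES, against 52.6% with TMM factors. Rbm46 was called higher in ES under that scaling too, at 0.64 (adjusted p = 0.0237). Ythdc2 and Mybl1 stayed above 0 with total counts alone, at 0.15 and 0.02, and by log2(FPKM + 0.1) Ythdc2 had 0.05 and Mybl1 -0.11.

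**Figure D3:**
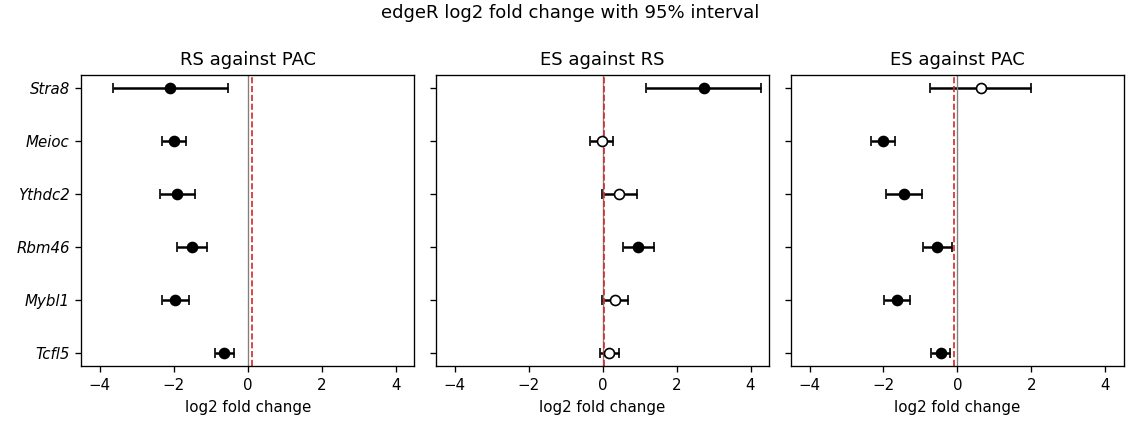
Log2 fold change of the 6 genes in RS against PAC, ES against RS and ES against PAC, with 95% intervals; filled circles were called at an adjusted p below 0.05, open circles were not, and the red dashed line marks the median of all tested features. All 6 genes lie below 0 in RS against PAC, Rbm46 (0.97) is called above 0 in ES against RS, as is Stra8 (2.73), which entered the fit only through PAC and ES, and 5 are called below 0 in ES against PAC.

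Across both steps, 5 of the 6 genes were called lower in ES than in PAC, against a background of 33.7% of features and 42.5% of NCBI genes called lower, 30.6% of features and 25.1% of NCBI genes called higher, and 64.4% called in either direction. Meioc, at 24.6% of its mean PAC level, stood at -2.02 ± 0.15 as a log2 fold change (SE, adjusted p = 7.68e-07), and 3.8% of NCBI genes had a lower value. Mybl1 followed at -1.63 ± 0.16 (SE, adjusted p = 6.19e-06) and Ythdc2 at -1.45 ± 0.22 (SE, adjusted p = 0.000125). The falls of Rbm46 (-0.54, adjusted p = 0.0231) and Tcfl5 (-0.45, adjusted p = 0.00496) were near the median NCBI gene, which stood at -0.38. Rbm46 was no longer called without ES replicate 1 (-0.50, adjusted p = 0.0546), without ES replicate 3 (-0.42, adjusted p = 0.0808) or without PAC replicate 3 (-0.40, adjusted p = 0.0839). Stra8 had a log2 fold change of 0.63 with an interval of -0.73 to 2.0 (adjusted p = 0.392). In the joint test over the 3 cell types, which called 82.0% of features, all 6 genes were called, with adjusted p between 3e-07 for Meioc and 0.0114 for Stra8, to which the same limit applies. Without RS replicate 2 the joint adjusted p of Stra8 was 0.0518, and without RS replicate 3 it was 0.0516.

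The marker lists of other cells differed in direction from each other and from the 6 genes. Of 14 tested spermatogonial markers, 8 were higher and 1 was lower in ES than in RS, and 2 were higher and 7 lower in RS than in PAC. Their sum over 16 rows was 96.0 to 126 CPM in PAC, 38.9 to 41.2 CPM in RS and 48.8 to 61.0 CPM in ES. Id4 made up 74.2 to 101 CPM of this sum in PAC, 6.36 to 7.80 CPM in RS and 16.5 to 19.8 CPM in ES, and without it the sum was 21.8 to 27.2 CPM in PAC, 31.1 to 34.9 CPM in RS and 32.3 to 42.8 CPM in ES. Without Id4 the sum was thus higher in RS than in PAC, but this rested on Gfra1, which rose in RS (24.8 CPM in RS and 10.2 CPM in PAC). Gfra1 made up 62.3% of the full sum in RS, which was 14.5 to 15.4 CPM without it. With Id4 and Gfra1 both left out, the sum was lower in every RS library than in every PAC library. Etv5, a factor of spermatogonia that Sertoli cells also make, averaged 3.99 CPM in ES and 0.175 CPM in RS, and Sall4 averaged 0.668 CPM in ES and 0.00974 CPM in RS. Nanos2 was at 0 in ES and RS, and Neurog3 was at 0 in RS and PAC. All 13 tested Sertoli cell markers and all 10 Leydig cell markers were higher in ES than in RS, and lower in RS than in PAC. Of 12 tested macrophage and blood markers, 9 were higher and 0 lower in ES than in RS, and 7 were higher and 0 lower in RS than in PAC. Of 8 tested peritubular and vascular markers, 2 were higher and 0 lower in ES than in RS, and 4 were higher and 1 was lower in RS than in PAC. Of the 11 pachytene markers, Piwil1 (31.1 CPM in ES and 7.26 CPM in RS), Tex101 (46.8 CPM in ES and 12.4 CPM in RS) and Pou5f2 (36.1 CPM in ES and 3.76 CPM in RS) were higher in ES, Spag6 and Ccna1 were lower, and 6 were not called. The part of these markers in the values of Stra8 and Rbm46 was not tested.

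The nearest other gene to Rbm46 is the long non-coding RNA gene Rbm46os, which lies on the opposite strand (GENCODE) and begins 193 bp upstream of the start of Rbm46, which is at the higher coordinate. Rbm46 lies on chromosome 3 from 82836521 to 82876512 on the minus strand (GRCm38.p6), and Rbm46os from 82876705 to 82943638, so the Rbm46 promoter printed above reaches into the first bases of Rbm46os. Its transcript NR_040382.1 had 21.3, 17.1 and 20.1 CPM in PAC, 7.53, 7.02 and 8.82 CPM in RS and 7.78, 6.31 and 6.81 CPM in ES. Rbm46 and this transcript were thus lower in RS than in PAC, whereas in ES the transcript overlapped its RS level and Rbm46 did not. The transcript fell in RS against PAC (log2 fold change -1.32, adjusted p = 3.43e-05) and in ES against PAC (-1.49, adjusted p = 1.78e-05), and in ES against RS it had -0.16 (adjusted p = 0.463). Another tested transcript of Rbm46os was scarce, at 0.298 CPM in PAC, 0.323 CPM in RS and 0.320 CPM in ES. It was not called in any comparison (0.09 in RS against PAC, adjusted p = 0.942).

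The ratio of Rbm46 CPM to that of the transcript NR_040382.1 was 2.18, 2.72 and 3.15 in PAC, 2.34, 2.5 and 2.26 in RS and 4.36, 7.07 and 4.26 in ES. Every ES library had a higher ratio than every other library. The log2 difference was 1.11 in ES against RS and 0.94 in ES against PAC, each with p = 0.1 in a two-sided exact permutation test, the smallest value that 3 against 3 libraries allow, and -0.17 in RS against PAC (exact p = 0.4). The ratio was chosen after the values were seen.

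**Figure D4:**
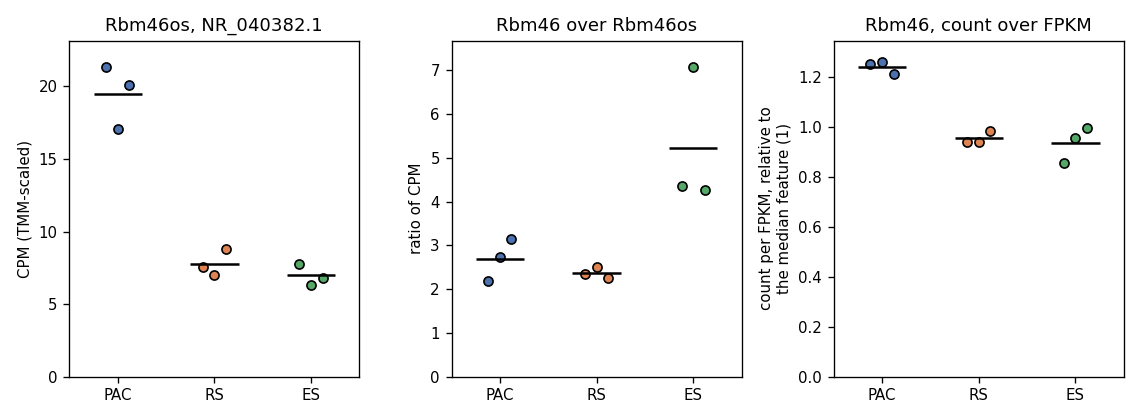
CPM of the Rbm46os transcript NR_040382.1, the ratio of Rbm46 CPM to it, and the ratio of count to FPKM of Rbm46 relative to the median feature. Axes are linear from 0, PAC, RS and ES are in order of development, and each point is 1 library. The ratio of Rbm46 to Rbm46os is 4.26 to 7.07 in ES, above all RS and PAC libraries.

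Genes that act with or beside the 6 were described through lists put together with results of these data known, and no test was run on a list as a whole. Their medians are read against those of all tested NCBI genes, a log2 fold change of -0.46 in RS against PAC and 0.18 in ES against RS, and 0.11 and 0.05 over all features. Their counts are read against the NCBI genes called lower and higher. These were 46.8% and 26.5% in RS against PAC, 21.8% and 31.6% in ES against RS, and 42.5% and 25.1% in ES against PAC. A count near these shares does not set its list apart. Of 17 tested genes of retinoic acid signalling, the pathway that induces Stra8, 5 were higher and 8 lower in RS than in PAC, with a median log2 fold change of -0.58, close to that of NCBI genes, and 5 in place of 8 were lower with a minimum count of 50. The receptor genes Rxrg (log2 fold change 2.33) and Rxra (1.30) rose, and Aldh1a1 (-3.45), an enzyme that makes retinoic acid, fell. Between ES and RS, 7 were higher and 2 lower in ES, with a median of 0.49. With total counts alone 6 were higher and 4 lower (median 0.12), and with a minimum count of 50 there were 3 in place of 7 higher. Aldh1a3 (3.44) and Aldh1a1 (3.42) rose there, and Lrat (-1.10), which stores retinol as esters, and Rxra (-0.61) fell. Aldh1a1 averaged 49.1 ± 12.3 CPM in ES and 4.59 ± 0.830 CPM in RS (SD, n = 3 each). The Sertoli and Leydig cell markers given above moved in the same directions as Aldh1a1, and their part in it was not tested.

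Of 10 tested regulators of meiotic initiation, 2 were higher and 4 lower in RS than in PAC (median -0.48, near that of NCBI genes; 2 in place of 4 lower with upper-quartile factors or with NCBI gene rows alone), and 4 were higher and 2 lower in ES than in RS (median 0.63). The gene of the STRA8 partner MEIOSIN, listed in the files as Bhmg1, averaged 1.52 ± 0.369 CPM in ES and 1.07 ± 0.449 CPM in RS (SD, n = 3 each) and was not called (log2 fold change 0.51, adjusted p = 0.285). Dazl, an RNA-binding protein that gives germ cells the competence to enter meiosis, fell in RS against PAC (-2.15) and rose in ES against RS (1.49). Rec8, the meiotic cohesin subunit induced along with Stra8, moved the other way, at 1.38 in RS against PAC and -1.52 in ES against RS. Dmrt1, which holds Stra8 back in spermatogonia, fell in RS against PAC (-1.15) and rose in ES against RS (1.93). Nanos2, Zglp1, Msx1 and Msx2 had too few counts to be tested. The count of 4 higher in ES was 2 without RS replicate 1, without RS replicate 3, by FPKM and with total counts alone.

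Of 15 writers, readers and erasers of m6A, the mark that YTHDC2 binds, 12 were lower and 1 was higher in RS than in PAC, with a median of -1.03. The writer subunits Wtap (-2.03) and Virma (-1.61) fell most among those with at least 1 CPM, and the eraser Fto (0.74) rose. The comparison of ES with RS had 3 higher and 2 lower, with a median of 0.08, and with total counts alone 1 higher and 3 lower, with a median of -0.23. Wtap (1.28) and Zc3h13 (0.84), both of the writer complex, rose there, and Mettl3 (-0.55), its catalytic subunit, and the eraser Alkbh5 (-0.52) fell. In ES against PAC, 10 were lower and 2 higher, with Mettl3 at -1.83 and Fto at 1.25.

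Of 10 relatives of RBM46 and factors of RNA decay, 7 were lower and 3 higher in RS than in PAC (median -1.21). Upf1, the helicase of nonsense-mediated decay, fell most (-3.01, with 18.1 ± 0.346 CPM in RS and 146 ± 15.9 CPM in PAC), followed by Dnd1 (-1.74), a germ cell RNA-binding protein. Dis3 (1.12), a nuclease of the exosome, and Rbm47 (1.08), a paralog of Rbm46, rose. In ES against RS, Cnot6l (1.44), a deadenylase, and Upf1 (1.19) rose and Dis3 (-0.76) fell, with 3 higher and 1 lower in all. Rbm46 and Rbm47 thus moved in opposite directions between RS and PAC.

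Of 12 tested MYB paralogs and subunits of the MuvB complex, with which MYB proteins act at cell cycle genes, 8 were lower and 3 higher in RS than in PAC (median -0.83). The largest falls were those of Tfdp1 (-3.71) and Lin52 (-3.34), and Rbl2 (1.30) and E2f5 (1.20) rose. The paralog Mybl2 rose in RS against PAC (0.97) and fell in ES against RS (-1.01), with 4.19 ± 0.777 CPM in ES and 8.48 ± 1.34 CPM in RS (SD, n = 3 each). Higher in ES than in RS were 6 of the 12 and lower were 2, Tfdp1 being higher by 1.90 and Tfdp2 by 1.27. With upper-quartile factors, or with NCBI gene rows alone, 5 in place of 8 genes were called lower in RS, and by FPKM 2 or 3 in place of 6 were called higher in ES than in RS.

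Of 20 genes of the pachytene piRNA pathway, several of which MYBL1 and TCFL5 are known to bind, 16 were lower and 1 was higher in RS than in PAC, with a median of -1.88. Piwil1, the PIWI protein loaded with pachytene piRNAs, had 7.26 ± 1.35 CPM in RS and 163 ± 35.8 CPM in PAC (log2 fold change -4.49), and Tdrd1, a Tudor protein of the piRNA granules, fell by 3.72 on the log2 scale. Gtsf1 (0.71), a partner of PIWI proteins, rose. Between ES and RS 7 were higher and 4 lower in ES, among them Piwil1 (2.10) and Tdrd1 (2.04) higher and Rnf17 (-0.82) and Asz1 (-0.69) lower. In ES against PAC 18 of the 20 were lower.

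Of 21 tested transcription regulators of prophase and of spermatids, 7 were higher and 8 lower in RS than in PAC (median -0.57). Fhl5 (2.04), a coactivator of CREM, and Hsf2 (1.45), a heat shock factor, rose, and Zcwpw1 (-2.28), a reader of histone marks at recombination sites, and Hsf5 (-1.17) fell. ES had 3 higher and 6 lower than RS, with Patz1 (2.34) and Zcwpw1 (1.14) higher and Hsf2 (-1.62) and Taf7l (-1.44) lower. With total counts alone 10 in place of 6 were called lower.

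Genes of the mitotic cell cycle, which the MEIOC complex is known to hold back at meiotic entry, were lower in RS than in PAC in 13 of 23 cases and higher in 3 (median -0.97). Ccne2 (-4.22) and Cdk2 (-4.07) fell most, and Ccnd3 (1.77) and Ccnb1 (0.89) rose. Cyclin A2, encoded by Ccna2, averaged 6.68 ± 0.844 CPM in RS and 8.27 ± 1.24 CPM in PAC (SD, n = 3 each) and was not called (-0.31, adjusted p = 0.227). ES had 7 higher and 6 lower than RS, with Mcm3 (2.75) and Cdk2 (2.39) higher and Ccnb1 (-1.40) and Bub1 (-1.21) lower. Under 5 of the alternatives, total counts alone and NCBI gene rows alone among them, 10 genes in place of 6 were called lower in ES.

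Of 23 tested genes of early meiotic prophase, 11 were lower and 4 higher in RS than in PAC (median -0.34, and 0.05 with NCBI gene rows alone). Tex12 (-3.69), of the synaptonemal complex, and Mlh3 (-3.07), of the crossover machinery, fell. Syce2, another subunit of the synaptonemal complex, rose in both steps, by 1.5 in RS against PAC and 1.82 in ES against RS, with 48.2 ± 6.16 CPM in PAC, 137 ± 7.02 CPM in RS and 483 ± 49.9 CPM in ES (SD, n = 3 each). In ES against RS 7 were higher and 4 lower, and 8 were lower with total counts alone and 7 without ES replicate 1 or with NCBI gene rows alone. By FPKM 2 or 3 in place of 7 were higher and 9 in place of 4 were lower.

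**Figure D5:**
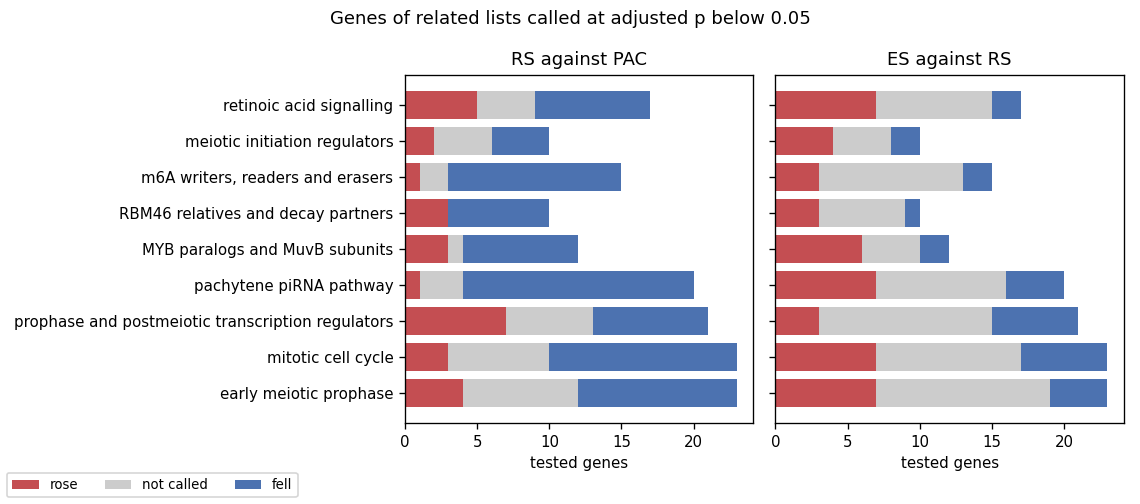
Number of tested genes of each list that were called higher (red), not called (grey) or called lower (blue) at an adjusted p below 0.05 in RS against PAC and in ES against RS. Blue takes most of the bar for the m6A (12 of 15), piRNA (16 of 20), mitotic (13 of 23), RBM46 and RNA decay (7 of 10) and MYB and MuvB (8 of 12) lists in RS against PAC. Of all tested NCBI genes, 46.8% were called lower in that comparison.

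The genes with the most similar profiles were found by the root mean square difference of log2 CPM, centred on the mean of the gene, over the 9 libraries and 14954 NCBI genes. For Meioc these were Arhgap28 (0.075), Zfp446 (0.083) and Fancg (0.083), and for Mybl1 they were Ppp4r3b (0.071), Atxn7l3b (0.074) and Tbccd1 (0.074). Ythdc2 was nearest to Polr2d (0.089), Zfp874a (0.10) and Cep55 (0.11), and Tcfl5 to Pgs1 (0.057), Cop1 (0.069) and Setd3 (0.07). Rbm46 was nearest to Ric1, Kdm2a and Usp31, at 0.15 each. Stra8 was nearest to Wdr44 (0.26), Naa10 (0.48) and Myh9 (0.51). Wdr44, at 0.364 CPM in PAC, 0.0882 CPM in RS and 0.618 CPM in ES, was as scarce as Stra8, so its likeness rests on few counts. Among the 6 themselves, Mybl1 and Ythdc2 were most alike (0.16), followed by Meioc and Mybl1 (0.20) and Meioc and Ythdc2 (0.29), and the distance from Stra8 to the other 5 was 0.73 to 1.30. The libraries are shared by all of these profiles.

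The genes adjacent to the 6 differed in direction. Wdr91, next to Stra8 on chromosome 6, fell in RS against PAC (-2.84) and rose in ES against RS (1.53), as Stra8 did. Ccdc43, next to Meioc on chromosome 11, fell in RS against PAC (-0.69), and so did Vcpip1, next to Mybl1 on chromosome 1 (-1.12). Mcc, next to Ythdc2, was not called in RS against PAC (-0.99, adjusted p = 0.0636). Around Tcfl5 on chromosome 2, Ogfr fell in RS against PAC (-1.75), Dido1 was not called (-0.08, adjusted p = 0.821) and Col9a3 rose (1.39). Col9a3 overlaps the end of Tcfl5 on the opposite strand, and no source at hand says whether counting used the strand, so reads in the overlap cannot be assigned with certainty. Col9a3 averaged 7.62 CPM in RS and 2.91 CPM in PAC, and Tcfl5 averaged 650 CPM in RS and 1009 CPM in PAC.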

How the data were processed

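Gene-level values from 9 RNA-seq libraries, 3 each of PAC, RS and ES, were used. The authors deposited 2 tables of 50493 features, and HISAT2, StringTie and the build GRCm38.p6 are named in the submitters' processing notes, without tool versions. The deposited count table is labelled raw, but 18.85% of its values are not whole, so they were treated as estimated counts and rounded. The authors deposited FPKM values for the same features, and no source at hand gives the lengths and totals behind them. Symbols and coordinates came from a RefSeq table of GRCm38.p6, and 21726 of 21877 NCBI genes matched.

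A minimum count of 10 in filterByExpr left 26030 features. All 6 genes passed, Stra8 only through its counts in PAC and ES. Cell types were compared in pairs by the quasi-likelihood test of edgeR (two-sided, TMM factors, robust fit, all 9 libraries, common biological coefficient of variation 0.24), with Benjamini-Hochberg adjustment over all features and a threshold of 0.05. CPM are after TMM scaling, with factors from 0.758 to 1.099, and log2 CPM for the likeness of profiles used a prior count of 2. Floors and counting limits cover counting error only. FPKM were tested with limma on log2(FPKM + 0.1), with features kept at a minimum of 0.1 FPKM, a scale that understates changes of low genes. The fits were also run on simulated data, for counts with means and spread taken from the main fit. Alternatives were other scalings and filters, DESeq2, FPKM, 2 cell types alone, a replicate block, and leaving out each library.

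The genes and lists were chosen with earlier results of these data known. Genes were named from each list by a fixed rule, up to 2 called genes per direction with the largest change and at least 1 CPM in 1 of the cell types. Ccna2, Bhmg1 and, in RS against PAC, Mybl2 are named outside this rule, after their values were seen. A gene that the rule selected is not reported here. Meiosin is listed as Bhmg1 through its synonym. The replicate numbers come from the titles; deviations of same-numbered libraries correlated at -0.04 to 0.273, so the numbers were not taken as pairs. R 4.3.3, edgeR 4.0.16, limma 3.58.1 and DESeq2 1.42.0 were used.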

Additional observations from a re-analysis of the deposited data

How the results depend on the processing

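No fold change of the 6 genes that was called turned its direction under any alternative run, and the falls of Meioc, Ythdc2 and Mybl1 in RS against PAC and in ES against PAC stayed called under all of them. In RS against PAC, Stra8 had -0.32 on log2(FPKM + 1) and was no longer called, and -2.78 to -1.58 when 1 library was left out. With NCBI gene rows alone, Tcfl5 had -0.25 and was not called, and 5175 features rose and 5459 fell, against 9956 and 8907. In ES against RS, Ythdc2 (0.59) and Mybl1 (0.47) were called with DESeq2 and with RLE size factors, and Tcfl5 (0.32) with DESeq2. Leaving out 1 library gave 0.20 to 0.69 for Ythdc2 and 0.24 to 0.49 for Mybl1. The number of the 6 genes called in ES against RS was 2 in the main result, 5 with DESeq2, 4 with RLE size factors, 1 with the 2 cell types alone and with a minimum count of 50, where Stra8 was not tested, and 2 to 4 when 1 library was left out. By FPKM 4202 features rose (3975 with no filter) and 8861 fell (9154 with 1 added), against 6374 and 5752 by counts.

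In ES against PAC, Rbm46 lost its call with the 2 cell types alone (-0.34), by FPKM with 0.1 added (-0.35, with and without a filter) or 1 added (-0.33), with NCBI gene rows alone (-0.29), with a minimum count of 50 (-0.43) and with upper-quartile factors (-0.23), and ran from -0.73 to -0.40 when 1 library was left out. Tcfl5 lost its call with the 2 cell types alone (-0.26), NCBI gene rows alone (-0.20) and upper-quartile factors (-0.15), so that 3 of the 6 genes were called under each of these 3 settings, against 5. With NCBI gene rows alone 4669 features rose and 5509 fell, against 7976 and 8778 in the main fit. Among the NCBI genes of the main fit, 3776 rose and 6388 fell. The median NCBI gene was at -0.38 in the main fit and at -0.13 with NCBI gene rows alone. Upper-quartile factors moved the median of all features to 0.42 in RS against PAC and 0.21 in ES against PAC, and 57.9% of the features called in ES against PAC were then higher in ES, against 47.6%. The joint adjusted p of Stra8 was 0.00372 to 0.0518 when 1 library was left out.

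With a replicate block, Stra8 had -2.21 and Meioc -2.00 in RS against PAC, and Rbm46 had 0.97 in ES against RS; the block changed no call of the 6 genes. Of 1134 list counts recomputed, 1026 were within 1.5 times the main count. Except where stated, the cause of a changed call was not tested. Depth limits Stra8, whose counts were 2 to 23 per library.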
